A study of Mus musculus with 18 samples.

Results

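Laminins and integrins are the matrix and receptor sides of the contact between a cell and its basement membrane. The genes followed here are 32 mouse genes of these families, chosen by name with earlier results of these data known. Of these, 12 encode laminin chains or the nidogens that tie laminin to collagen IV, and 20 encode integrin chains. All 32 are among the 21647 genes of the count table. Of them, 29 had enough reads to be tested, among 13058 tested genes, and Lama1, Lama3 and Itga4 did not. RNA was sequenced in 18 libraries of cultured embryonic aortic endothelial cells, the cell type given in the labels, in 6 groups of 3. The orpk cells came from Tg737orpk/orpk mice, which carry an insertion in Ift88, a gene of the transport machinery that builds the primary cilium; the WT cells came from wild-type mice. Each genotype was kept static or sheared by laminar flow at 2 or 30 dyn/cm² for 48 h. The cells of all groups grew on 0.1% gelatin in medium with 2% serum, and serum starvation for 24 h came before flow. The study's design text does not say outright whether the static controls were starved too, nor how long they were kept, and every comparison with static cells includes any such difference.

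A laminin is a cross-shaped trimer of 1 alpha, 1 beta and 1 gamma chain, and the alpha chain carries the main binding site for cells. Around blood vessels the laminins of the endothelial basement membrane contain Lama4 or Lama5, mostly with Lamb1 and Lamc1. An integrin is a heterodimer of 1 alpha and 1 beta chain that binds matrix outside the cell and the actin cytoskeleton, through adaptor proteins, inside it, and integrins are among the structures through which endothelial cells are known to respond to flow. Integrin chains reach the cell surface as such dimers and laminins leave the cell as trimers, so the chains are described below with the partners they are known to have. Transcript levels do not measure how much of a dimer or trimer was made.

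The labels name no separate animals or cultures for the 3 libraries of a group, so the p-values cover no more than library-to-library spread, part or all of which may be technical. Library totals ran from 13626480 to 17387553 counts. The first 2 dyn/cm² WT library and the second 2 dyn/cm² orpk library stood apart from the other 2 of their group: their counts differed from those of a partner by 6.35 to 7.74 and 3.39 to 3.79 times sampling noise (chi-square per degree of freedom), against 1.21 to 2.33 for all pairs without them. Where a call of a single member described below changes without either, that change is given. Most other values are given with all 3 libraries of their group. Ift88 had 7.49, 8.46 and 7.47 CPM (counts per 1000000 counts of the library, scaled by TMM, the trimmed mean of M values) in static orpk cells, against 13.4, 17.4 and 15.98 CPM in static WT cells, a log2 fold change of -0.99 ± 0.10. Of 12 endothelial markers 8 were tested, and 6 were higher and 2 lower in static orpk cells. As group means Vwf lay between 3.38 and 5.12 CPM in orpk cells and at or below 0.134 CPM in WT cells, Cdh5 between 0.579 and 1.12 CPM in orpk cells, and Egfl7 between 2.22 and 4.25 CPM in orpk cells and between 9.25 and 10.9 CPM in WT cells. Pecam1 lay between 0.145 and 0.414 CPM in orpk cells and between 0.584 and 1.27 CPM in WT cells. Cdh5, Tie1 and Erg were at 0 reads in all 3 WT groups, and Cldn5 and Robo4 in all 3 orpk groups. Most defining markers of the labelled cell type were thus low or at 0 reads.

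Below, a level within 1 gene is in CPM, and a level compared between genes is in RPKM, the same CPM per kilobase of the gene's merged exons. Errors of levels are SDs over 3 libraries and errors of log2 fold changes are standard errors. A change was called at an adjusted p under 0.05 (edgeR's quasi-likelihood test, Benjamini-Hochberg over all 13058 genes), and "rose", "fell", "higher" and "lower" of a test are used for called changes.

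The orpk and WT cells held different sets of these chains. Static orpk cells transcribed Lama4, Lama2, Nid1 and the collagen receptor chain Itga11, which were at or near 0 reads in WT cells, and static WT cells had the higher levels of Lama5 and of the laminin receptor chains Itga3 and Itga6. In static culture 25 of the 29 tested members differed, 15 higher and 10 lower in orpk cells, while 87.8% of all tested genes were called (44.4% higher, 43.4% lower). The share called among the members is thus near that of all genes. By more than 1 on the log2 scale 19 of 29 differed, against 40.3% of all tested genes. Because the members were chosen with earlier results of these data known, such counts here and below are descriptions and no test of the set. Under 2 dyn/cm² all 29 differed (background 87.5%), 19 higher and 10 lower (background 44.6% and 42.9%). At 30 dyn/cm² 26 differed (background 86.9%), 19 higher and 7 lower (background 44.9% and 42.0%). With library totals in place of TMM the split at 30 dyn/cm² was 17 higher and 10 lower, and that scaling shifts the median of all genes between genotypes by -0.22, -0.22 and -0.31 on the log2 scale at static, 2 and 30 dyn/cm². The fibroblast markers moved with genotype: 10 listed genes summed to 26298 to 41412 CPM in orpk libraries and 717 to 1160 CPM in WT libraries, and all 10 were higher in static orpk cells. The 6 smooth muscle and pericyte markers summed to 489 to 1031 CPM in orpk libraries and 8.03 to 10.7 CPM in WT libraries, and the 11 epithelial markers to 18.3 to 103.5 CPM in orpk libraries and 318 to 476 CPM in WT libraries. All 8 epithelial markers tested were lower in static orpk cells. The orpk sum is mostly Krt19 and the WT sum mostly keratins, while Cdh1, Cldn7 and Ocln lay at or below 0.319 CPM in every group mean. The 5 mesothelial markers, mostly Msln, summed to 109.7 to 209.7 CPM in orpk libraries and 27.9 to 105.7 CPM in WT libraries. The part of these markers in the genotype differences was not tested, and in bulk RNA fewer cells of a type and less RNA per cell cannot be told apart.

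At 30 dyn/cm² against static the chains changed in both genotypes, as did most tested genes, with some changes in common and others opposite. The beta chains Itgb1, Itgb3 and Itgb5 rose and Itgb8 fell in both genotypes, while Itga2 and Itga7, and by less Itgav and Lamc1, rose in orpk cells and fell in WT cells; the call of Itgav in WT cells is lost with library totals as the scaling. In orpk cells 23 of 29 members were called at 30 dyn/cm² against static, 10 higher and 13 lower, with a background of 69.9% (36.5% higher, 33.3% lower). By more than 1 on the log2 scale 13 of 29 changed, against 14.3% of all tested genes. In WT cells 17 of 29 were called, 5 higher and 12 lower, with a background of 66.9% (34.1% higher, 32.7% lower), and 9 changed by more than 1, against 9.72%. The share called at any size was thus near that of all genes, somewhat above it in orpk cells and somewhat below it in WT cells. Against static, 2 dyn/cm² gave 19 calls in orpk cells, 4 higher and 15 lower (background 62.0%, with 30.9% higher and 31.1% lower). That split was 6 higher and 12 lower with library totals. In WT cells at 2 dyn/cm² 19 were called, 5 higher and 14 lower (background 62.9%, with 32.6% higher and 30.3% lower). Library totals shift the median of all genes by 0.11 there. Between 30 and 2 dyn/cm² 21 members were called in orpk cells, 12 higher and 9 lower at 30 dyn/cm² (background 63.6%, with 32.1% higher and 31.5% lower), and 16 in WT cells, 8 higher and 8 lower (background 33.1%, with 15.9% higher and 17.2% lower). The comparisons within a genotype share their libraries, so their values are given side by side.

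**Figure D1:**
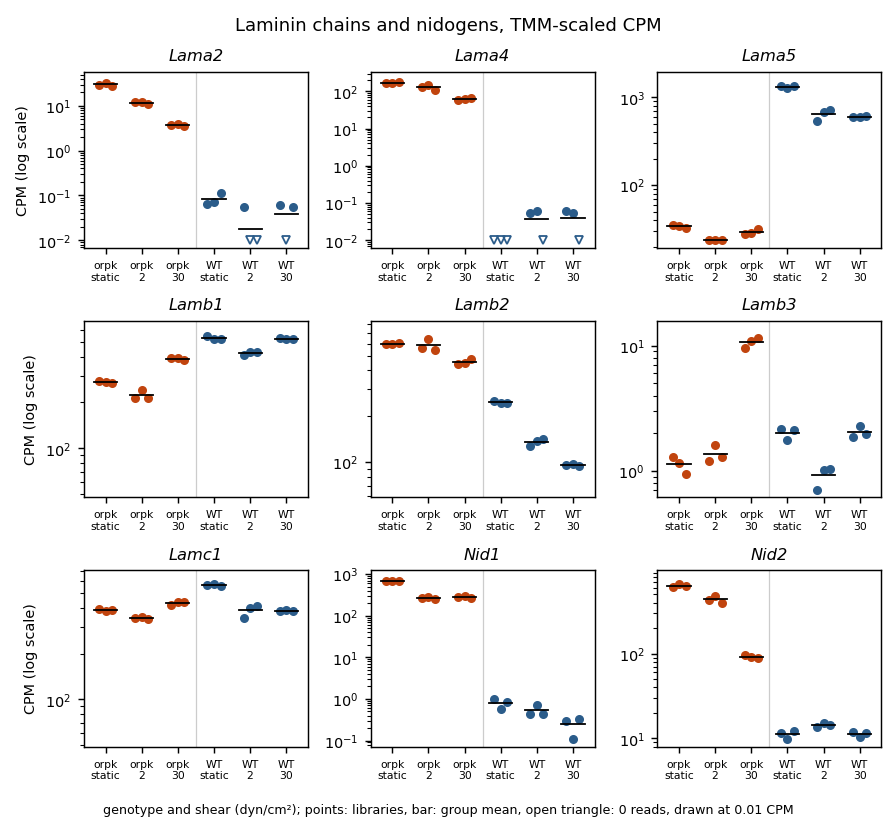
TMM-scaled CPM on a log scale (vertical) of 9 laminin and nidogen genes in each of 18 libraries, by genotype and shear (horizontal); points are libraries, bars are group means, and open triangles are libraries with 0 reads, drawn at 0.01 CPM. Lama2, Lama4, Nid1 and Nid2 lie higher in every orpk library than in any WT library, and Lama5 and Lamb1 lie lower.

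Among the laminin alpha chains the genotypes used different genes. Lama4 (ENSMUSG00000019846, chromosome 10, 38965515 to 39110188, plus strand; all coordinates are GRCm38) encodes the alpha chain common in vessel walls. It had 168, 172 and 174 CPM in static orpk libraries, 130.2, 144 and 108 CPM at 2 dyn/cm² and 58.6, 63.8 and 65.3 CPM at 30 dyn/cm². Its WT libraries contained 0, 0 and 0 reads in static culture, 1, 1 and 0 at 2 dyn/cm² and 1, 1 and 0 at 30 dyn/cm². Every orpk library was thus far above every WT library, and the orpk level was lowest at 30 dyn/cm². With a floor of 3 reads over the WT group, Lama4 was at least 2685-fold higher in static orpk cells (adjusted p = 1.19e-17). In orpk cells it fell by 1.45 on the log2 scale at 30 dyn/cm² (SE 0.08; adjusted p = 4.17e-11) and by 0.42 at 2 dyn/cm² (SE 0.07).

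Lama5 (ENSMUSG00000015647, chromosome 2, 180176373 to 180225859, minus strand), the alpha chain that adult endothelium and most epithelia use, showed the opposite pattern. It had 35.2, 34.5 and 32.6 CPM in static orpk libraries, 23.5, 23.5 and 23.8 at 2 dyn/cm² and 27.7, 28.5 and 31.5 at 30 dyn/cm². It had 1337, 1275 and 1328 CPM in static WT libraries, 544, 687 and 713 at 2 dyn/cm² and 597, 602 and 607 at 30 dyn/cm². All orpk libraries lay below all WT libraries, and all sheared WT libraries lay below all static WT libraries. The static level was 38.5-fold lower in orpk cells (log2 fold change -5.27 ± 0.09, adjusted p = 1.09e-17). Under flow Lama5 fell 2.03-fold at 2 dyn/cm² and 2.18-fold at 30 dyn/cm² in WT cells (log2 fold changes -1.02 ± 0.07 and -1.12 ± 0.07). In orpk cells the change was -0.53 ± 0.12 at 2 dyn/cm² and, not called, -0.23 ± 0.12 at 30 dyn/cm² (adjusted p = 0.0976). The flow effect at 30 dyn/cm² was higher in orpk than in WT cells by 0.90 ± 0.14 (interaction, adjusted p = 3.61e-05).

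Lama2 (ENSMUSG00000019899, chromosome 10, 26980036 to 27619758, minus strand), the alpha chain of muscle and nerve basement membranes, was read in orpk cells alone beyond 2 reads a library. It had 29.9, 32.6 and 28.3 CPM in static orpk libraries, 12.2, 12.4 and 10.9 at 2 dyn/cm² and 3.75, 3.86 and 3.49 at 30 dyn/cm², with groups that did not overlap. In WT libraries there were 1, 1 and 2 reads in static culture, 1, 0 and 0 at 2 dyn/cm² and 1, 0 and 1 at 30 dyn/cm². In orpk cells it fell 2.56-fold at 2 dyn/cm² and 8.17-fold at 30 dyn/cm² (log2 fold changes -1.35 ± 0.08 and -3.03 ± 0.11). Against static in orpk cells, 1 of the 10 fibroblast markers was called higher and 9 lower at 2 dyn/cm² (median -0.55), and 2 higher and 7 lower at 30 dyn/cm² (median -0.85). Their part in the falls of Lama2, Lama4, Nid1 and Nid2 in orpk cells was not tested. Lama1, the alpha chain of the early embryo, had 1 read in all 18 libraries together. Lama3, the alpha chain of skin hemidesmosomes, had 4, 5 and 3 reads in static orpk libraries and 6, 5 and 8 in static WT libraries, and no library held more than 10.

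Per kilobase, the laminin alpha chains together reached 19.1 ± 0.20 RPKM in static orpk cells, 13.4 ± 1.5 at 2 dyn/cm² and 7.99 ± 0.43 at 30 dyn/cm². In WT cells the sum was 115 ± 3.0 RPKM static, 56.9 ± 8.0 at 2 dyn/cm² and 52.9 ± 0.40 at 30 dyn/cm². Lama4 made up 74.4 ± 1.1% of that sum in static orpk cells, 78.7 ± 2.3% at 2 dyn/cm² and 64.9 ± 0.79% at 30 dyn/cm². Lama5 made up 15.7 ± 0.66%, 15.6 ± 2.0% and 32.1 ± 0.90% in the same order in orpk cells, and 100.0 ± 0.0053%, 99.9 ± 0.029% and 100.0 ± 0.033% in WT cells. The orpk shares depend on the length used. The log2 ratio of Lama4 to Lama5 there was 2.24, 2.34 and 1.01 by merged exons, and 3.24, 3.34 and 2.01 by the longest transcript. The orpk cells thus carried a mixture of Lama4 and Lama5 transcripts and WT cells nearly Lama5 alone.

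Both major beta chains were read in both genotypes, in different proportions. Lamb1 (ENSMUSG00000002900, chromosome 12, 31265234 to 31329644, plus strand), the beta chain of most laminins, had 275, 272 and 268 CPM in static orpk libraries, 216, 241 and 214 at 2 dyn/cm² and 391, 390.1 and 381 at 30 dyn/cm². It had 546, 520 and 524 CPM in static WT libraries, 410.2, 429 and 431 at 2 dyn/cm² and 527, 521 and 524 at 30 dyn/cm². Each orpk group lay below its WT group, and the orpk level was highest at 30 dyn/cm². Lamb1 was lower in static orpk cells by a log2 fold change of -0.96 ± 0.04 and rose in orpk cells at 30 dyn/cm² (0.51 ± 0.04, adjusted p = 9.77e-16); the WT value at 30 dyn/cm² was -0.02 ± 0.04, not called.

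Lamb2 (ENSMUSG00000052911, chromosome 9, 108479736 to 108490530, plus strand), the beta chain of synapses, kidney glomeruli and vessel walls, was the more abundant beta chain in orpk cells. It had 598, 596 and 606 CPM in static orpk libraries, 563, 641 and 545 at 2 dyn/cm² and 442, 447 and 473 at 30 dyn/cm². It had 254, 245 and 243 CPM in static WT libraries, 128, 137 and 141 at 2 dyn/cm² and 95.3, 97.5 and 94.4 at 30 dyn/cm². Every orpk library was above every WT library, and the 3 WT groups did not overlap, with the static one highest. Lamb2 was 2.43-fold higher in static orpk cells. It fell 2.58-fold at 30 dyn/cm² in WT cells (-1.37 ± 0.05) and less in orpk cells (-0.40 ± 0.04), and the 2 effects differed by 0.97 ± 0.06 (interaction, adjusted p = 6.42e-16). Per kilobase the ratio of Lamb2 to Lamb1 was 3.6, 4.25 and 1.91 in orpk cells at static, 2 and 30 dyn/cm², and 0.76, 0.522 and 0.298 in WT cells. The size of these ratios depends on the length used. On the log2 scale they were 1.85, 2.09 and 0.93 in orpk cells by merged exons, and 1.18, 1.42 and 0.27 by the longest transcript. In WT cells they were -0.40, -0.94 and -1.75 by merged exons, and -1.06, -1.60 and -2.41 by the longest transcript. The Lamb2 share of the laminin beta chains was thus lowest at 30 dyn/cm² in both genotypes.

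Lamb3 (ENSMUSG00000026639, chromosome 1, 193207699 to 193343878, plus strand), the beta chain of epithelial anchoring laminin, was low, and highest in orpk cells at 30 dyn/cm². It had 1.28, 1.16 and 0.952 CPM in static orpk libraries, 1.19, 1.62 and 1.3 at 2 dyn/cm² and 9.59, 10.9 and 11.5 at 30 dyn/cm². It had 2.15, 1.75 and 2.13 CPM in static WT libraries, 0.706, 1.02 and 1.03 at 2 dyn/cm² and 1.86, 2.27 and 1.98 at 30 dyn/cm². The orpk libraries at 30 dyn/cm² were above all other libraries. Lamb3 rose 9.31-fold at 30 dyn/cm² in orpk cells (3.22 ± 0.17, adjusted p = 1.48e-20), the WT value was 0.02 ± 0.20, and the interaction was 3.20 ± 0.28 (adjusted p = 3.72e-13). Its known alpha partner Lama3 held 3, 1 and 0 reads in the same 3 orpk libraries. Between genotypes at 2 dyn/cm² Lamb3 was called (0.58 ± 0.26), but not without the first WT library (0.42) or without the second orpk library (0.44).

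The gamma chain Lamc1 (ENSMUSG00000026478, chromosome 1, 153218922 to 153332786, minus strand), shared by most laminins, was abundant in all 6 groups. It had 389.5, 383 and 387 CPM in static orpk libraries, 340.1, 349.6 and 335 at 2 dyn/cm² and 416, 434 and 435 at 30 dyn/cm². It had 562, 574 and 556 CPM in static WT libraries, 343, 401 and 413 at 2 dyn/cm² and 379.9, 384 and 383 at 30 dyn/cm². The static WT libraries were the highest. At 2 dyn/cm² the genotypes overlapped through the first WT library, which stands apart, and the other 2 WT libraries lay above all 3 orpk libraries. Lamc1 was lower in orpk cells there (-0.18 ± 0.04; -0.25 ± 0.03 without that WT library). Lamc1 was lower in static orpk cells (-0.55 ± 0.04), fell in WT cells at both shear levels (-0.55 ± 0.04 and -0.56 ± 0.04) and rose in orpk cells at 30 dyn/cm² (0.15 ± 0.04). At 30 dyn/cm² it was higher in orpk cells by 0.16 ± 0.04, and lower by 0.15 where library totals replace TMM. Lamc3, a rarer gamma chain, held 5, 8 and 3 reads in static orpk libraries, 3, 9 and 4 at 2 dyn/cm² and 5, 6 and 3 at 30 dyn/cm². Its reads in static WT libraries numbered 6, 4 and 10, with 18, 20 and 18 at 2 dyn/cm² and 12, 16 and 20 at 30 dyn/cm². Lamc3 rose in WT cells at both shear levels (1.28 ± 0.35 and 1.08 ± 0.36). The second value is 0.91 and not called without the third library at 30 dyn/cm². Lamc3 made up at most 0.37% of the summed RPKM of Lamc1 and Lamc3 as a group mean.

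Per kilobase, Lama4 and Lama5 lay below the shared gamma chain in orpk cells. The log2 ratio per kilobase of Lama5 to Lamc1 was -3.96 ± 0.06, -4.32 ± 0.04 and -4.34 ± 0.08 in orpk cells at static, 2 and 30 dyn/cm². In WT cells it was 0.76 ± 0.06, 0.28 ± 0.07 and 0.19 ± 0.01. The ratio of Lama4 to Lamc1 in orpk cells was -1.72 ± 0.03, -1.98 ± 0.18 and -3.32 ± 0.05. With the longest transcript as length, the Lama4 values were -0.84, -1.10 and -2.44, so their size depends on the length used. In WT cells Lama5 transcripts thus exceeded those of Lamc1, and in orpk cells neither alpha chain reached the Lamc1 level.

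The nidogens separated the genotypes further. Nid1 (ENSMUSG00000005397, chromosome 13, 13437551 to 13512269, plus strand), which links laminin gamma chains to collagen IV, had 675, 669 and 666 CPM in static orpk libraries, 264, 287 and 259 at 2 dyn/cm² and 274, 290.4 and 272 at 30 dyn/cm². WT libraries had 15, 8 and 15 reads in static culture, 8, 12 and 8 at 2 dyn/cm² and 5, 2 and 6 at 30 dyn/cm². All sheared orpk libraries were below all static orpk libraries, and all orpk libraries were above all WT libraries. Nid1 was 821-fold higher in static orpk cells and fell there 2.48-fold at 2 dyn/cm² and 2.4-fold at 30 dyn/cm² (-1.31 ± 0.04 and -1.26 ± 0.04).

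Nid2 (ENSMUSG00000021806, chromosome 14, 19751265 to 19811787, plus strand), the second nidogen, had 614, 657 and 629 CPM in static orpk libraries, 433, 483 and 399 at 2 dyn/cm² and 95.2, 91.9 and 89.9 at 30 dyn/cm². It had 11.5, 9.87 and 12.4 CPM in static WT libraries, 13.5, 15.4 and 14.5 at 2 dyn/cm² and 11.7, 10.5 and 11.5 at 30 dyn/cm². The orpk groups did not overlap, and 30 dyn/cm² was the lowest. Nid2 fell 6.86-fold at 30 dyn/cm² in orpk cells (-2.78 ± 0.05), the WT value was -0.01 ± 0.11, and the interaction was -2.77 ± 0.12 (adjusted p = 1.97e-17). Together the nidogens reached 219 ± 3.9, 124 ± 10.3 and 58 ± 1.5 RPKM in orpk cells at static, 2 and 30 dyn/cm², and 2.29 ± 0.27, 2.87 ± 0.20 and 2.21 ± 0.15 RPKM in WT cells. Nid1 was the larger share in orpk cells at 30 dyn/cm² and Nid2 in the other 5 groups.

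**Figure D2:**
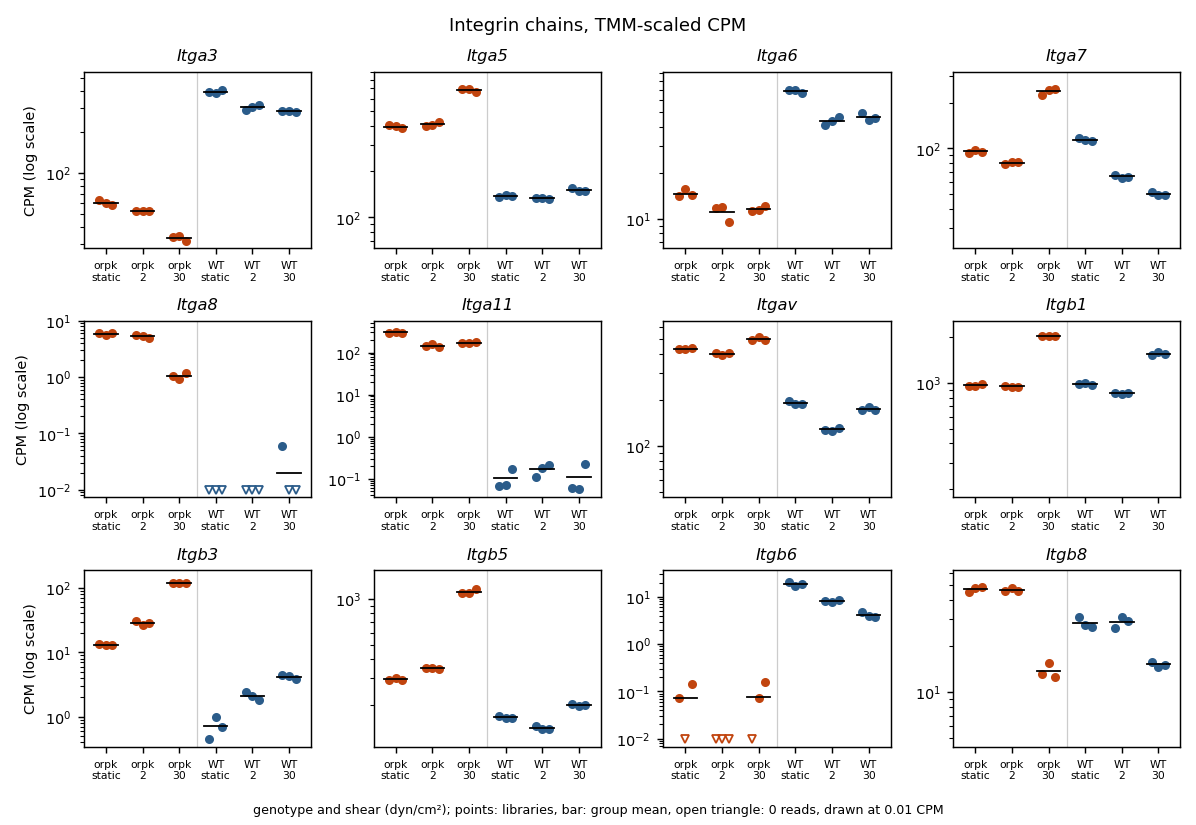
TMM-scaled CPM on a log scale (vertical) of 12 integrin genes in each of 18 libraries, by genotype and shear (horizontal); points are libraries, bars are group means, and open triangles are libraries with 0 reads, drawn at 0.01 CPM. Itga11 and Itga8 lie higher in the orpk libraries and Itgb6, Itga3 and Itga6 in the WT libraries, and Itgb1, Itgb3 and Itgb5 are highest at 30 dyn/cm² in each genotype.

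Itgb1, the beta chain that pairs with most alpha chains, and Itgb5, a beta chain that pairs with Itgav alone, held most of the integrin beta RPKM in every group, and both rose at 30 dyn/cm² in both genotypes. Their promoters are printed because the genes moved together, and that of Lama5 because it is the most abundant alpha laminin of WT cells and fell there under flow. Each is the 250 bases before the RefSeq start site in GRCm38.p6: chr8:128685404-128685653 on the plus strand for Itgb1, chr16:33829415-33829664 on the plus strand for Itgb5, and chr2:180225860-180226109 on the minus strand for Lama5. Capitals mark matches on either strand to GGAATG (the TEAD motif), TGANTCA (the AP-1 motif) and GGGCGG (the Sp1 motif).
Itgb1: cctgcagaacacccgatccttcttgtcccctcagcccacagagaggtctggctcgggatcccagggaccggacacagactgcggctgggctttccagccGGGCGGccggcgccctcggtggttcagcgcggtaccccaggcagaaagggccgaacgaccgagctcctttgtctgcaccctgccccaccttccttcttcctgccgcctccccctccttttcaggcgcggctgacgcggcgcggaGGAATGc
Itgb5: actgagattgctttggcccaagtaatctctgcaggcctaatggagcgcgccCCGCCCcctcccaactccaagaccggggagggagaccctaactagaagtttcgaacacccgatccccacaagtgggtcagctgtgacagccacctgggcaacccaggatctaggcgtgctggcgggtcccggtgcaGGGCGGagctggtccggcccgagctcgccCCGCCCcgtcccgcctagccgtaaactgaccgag
Lama5: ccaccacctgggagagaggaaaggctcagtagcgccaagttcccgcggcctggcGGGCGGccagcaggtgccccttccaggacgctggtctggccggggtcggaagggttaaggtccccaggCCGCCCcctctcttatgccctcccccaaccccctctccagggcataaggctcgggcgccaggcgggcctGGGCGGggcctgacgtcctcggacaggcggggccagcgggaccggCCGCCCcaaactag
The Itgb1 window holds 1 TEAD and 1 Sp1 match, the Itgb5 window 3 Sp1 matches and the Lama5 window 4 Sp1 matches. Of the 32 members, 21 had a promoter in the RefSeq table, and of these 4 had a TEAD match, 8 an Sp1 match and 0 an AP-1 match. Of all 32851 promoter windows of that length, 12.64% hold a TEAD match, 32.74% an Sp1 match and 6.749% an AP-1 match. A match is a description of letters and says nothing of binding.

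Itgb1 (ENSMUSG00000025809, chromosome 8, 128685654 to 128733200, plus strand) had 958, 956 and 979 CPM in static orpk libraries, 959, 942 and 941 at 2 dyn/cm² and 2037, 2038 and 2036 at 30 dyn/cm². It had 984, 995 and 967 CPM in static WT libraries, 862, 850.2 and 864 at 2 dyn/cm² and 1530.3, 1584 and 1546 at 30 dyn/cm². In static culture the genotypes overlapped, and at 30 dyn/cm² every orpk library was above every WT library. The static difference was -0.03 ± 0.03, not called (adjusted p = 0.406, unadjusted 95% interval -0.08 to 0.03). Itgb1 rose 2.11-fold in orpk cells and 1.58-fold in WT cells at 30 dyn/cm² (1.08 ± 0.03 and 0.66 ± 0.03), and the effects differed by 0.42 ± 0.04 (interaction, adjusted p = 1.87e-11). It fell in WT cells at 2 dyn/cm² (-0.19 ± 0.03), and the orpk value was -0.03 ± 0.03, not called. At 2 dyn/cm² it was higher in orpk cells by 0.14 ± 0.03, and lower by 0.080 where library totals replace TMM.

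The laminin-binding alpha chains Itga3, Itga6 and Itga7 pair with Itgb1, and Itga6 also with Itgb4. Itga3 (ENSMUSG00000001507, chromosome 11, 95044474 to 95076801, minus strand) had 62.8, 60.3 and 58 CPM in static orpk libraries, 52.7, 52.7 and 52.5 at 2 dyn/cm² and 33.7, 34.3 and 31.9 at 30 dyn/cm². It had 392, 383 and 406 CPM in static WT libraries, 289.9, 306 and 314 at 2 dyn/cm² and 284, 284 and 281 at 30 dyn/cm². The WT libraries were all above the orpk libraries, and the static libraries were the highest of each genotype. Itga3 was 6.52-fold lower in static orpk cells and fell at 30 dyn/cm² in orpk and in WT cells (-0.86 ± 0.05 and -0.48 ± 0.03), by more in orpk cells (interaction -0.38 ± 0.06, adjusted p = 1.39e-06).

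Itga6 (ENSMUSG00000027111, chromosome 2, 71745616 to 71858416, plus strand) had 14, 15.6 and 14.2 CPM in static orpk libraries, 11.7, 11.8 and 9.53 at 2 dyn/cm² and 11.2, 11.4 and 12 at 30 dyn/cm². It had 69.3, 69.6 and 67 CPM in static WT libraries, 40.9, 43.5 and 46.3 at 2 dyn/cm² and 49.4, 44.4 and 45.5 at 30 dyn/cm². Static libraries were again the highest in both genotypes. Itga6 was 4.69-fold lower in static orpk cells and fell at 30 dyn/cm² in both (-0.34 ± 0.09 in orpk cells, -0.56 ± 0.05 in WT cells). The interaction at 30 dyn/cm² was 0.22 ± 0.11, not called (adjusted p = 0.0785, unadjusted 95% interval 0.01 to 0.44).

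Itga7 (ENSMUSG00000025348, chromosome 10, 128933818 to 128958282, plus strand), the laminin receptor chain of muscle, moved in opposite directions. It had 93.6, 97.7 and 95.1 CPM in static orpk libraries, 79.3, 81.7 and 81 at 2 dyn/cm² and 224, 242 and 246 at 30 dyn/cm². It had 116, 114 and 112 CPM in static WT libraries, 67.2, 64.4 and 65.2 at 2 dyn/cm² and 51.7, 49.2 and 49.3 at 30 dyn/cm². The orpk libraries were highest and the WT libraries lowest at 30 dyn/cm². Itga7 rose 2.48-fold in orpk cells and fell 2.28-fold in WT cells (1.31 ± 0.04 and -1.19 ± 0.04), an interaction of 2.50 ± 0.06 (adjusted p = 6.04e-32). The 6 smooth muscle and pericyte markers summed to 951 to 1031 CPM in orpk cells at 30 dyn/cm², against 548 to 566 CPM in static orpk cells, and in WT cells they summed to 8.38 to 10.01 CPM at 30 dyn/cm² and 8.03 to 8.85 CPM static. The orpk sum at 30 dyn/cm² is mostly Cspg4, at 891 CPM as a group mean against 123 CPM static, while Notch3 had 50.7 CPM against 399.9 CPM static. Of the 4 markers tested in orpk cells there, 2 were called higher and 2 lower; their part in the Itga7 result was not tested.

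Itgb4 (ENSMUSG00000020758, chromosome 11, 115974709 to 116008412, plus strand), the hemidesmosome chain that pairs with Itga6 alone, was low in all groups. It held 49, 81 and 52 reads in static orpk libraries, 42, 82 and 47 at 2 dyn/cm² and 53, 57 and 63 at 30 dyn/cm². It held 57, 71 and 75 reads in static WT libraries, 82, 108 and 114 at 2 dyn/cm² and 82, 79 and 102 at 30 dyn/cm². The second orpk library was above the other 2 of its group in static culture and at 2 dyn/cm². Itgb4 was called at 2 dyn/cm² in WT cells (0.40 ± 0.17) and not in orpk cells (-0.24 ± 0.20), where it was called at -0.56 without that library. The WT call is lost with DESeq2, with RLE scaling, and without the second or the third library at 2 dyn/cm² or the first or the third static library (0.30 to 0.39). Per kilobase Itga6 was 2.75, 2.5 and 2.09 times Itgb4 in orpk cells at static, 2 and 30 dyn/cm², and 12.4, 6.01 and 7.28 times Itgb4 in WT cells. These ratios too depend on the length used. On the log2 scale the static values were 1.46 in orpk and 3.63 in WT cells by merged exons, and 2.35 and 4.52 by the longest transcript. The laminin-binding alpha chains summed to 24 ± 0.45, 20.4 ± 0.20 and 36.4 ± 1.4 RPKM in orpk cells, and to 90.6 ± 1.8, 66 ± 2.3 and 60.8 ± 0.62 RPKM in WT cells. Itga7 was the largest of the 3 in each orpk group and Itga3 in each WT group.

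The collagen-binding alpha chains Itga1, Itga2, Itga10 and Itga11 all pair with Itgb1. Itga11 (ENSMUSG00000032243, chromosome 9, 62677826 to 62783982, plus strand), the fibroblast receptor for fibrillar collagen, had 295, 308 and 298 CPM in static orpk libraries, 140.4, 159 and 136 at 2 dyn/cm² and 167, 169.5 and 179 at 30 dyn/cm². Its reads in static WT libraries numbered 1, 1 and 3, with 2, 3 and 4 at 2 dyn/cm² and 1, 1 and 4 at 30 dyn/cm². All orpk libraries were far above all WT libraries, and static orpk libraries were the highest. Itga11 was 2629-fold higher in static orpk cells, a ratio that rests on 5 WT reads. It fell 2.07-fold at 2 dyn/cm² and 1.75-fold at 30 dyn/cm² in orpk cells (-1.05 ± 0.04 and -0.81 ± 0.04). The fibroblast markers moved with flow in orpk cells too, as given with Lama2, and their part in the Itga11 changes was not tested.

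Itga2 (ENSMUSG00000015533, chromosome 13, 114833081 to 114932100, minus strand), a receptor for collagen and laminin, was low and moved in opposite directions. It held 1, 3 and 3 reads in static orpk libraries, 0, 1 and 0 at 2 dyn/cm² and 18, 16 and 13 at 30 dyn/cm². It held 43, 27 and 48 reads in static WT libraries, 3, 3 and 3 at 2 dyn/cm² and 13, 20 and 15 at 30 dyn/cm². The orpk libraries were highest at 30 dyn/cm² and the WT libraries highest in static culture. Itga2 rose 6.91-fold in orpk cells and fell 2.75-fold in WT cells at 30 dyn/cm² (2.79 ± 0.46 and -1.46 ± 0.23), an interaction of 4.25 ± 0.50 (adjusted p = 1.69e-09). In WT cells it fell 14.3-fold at 2 dyn/cm² (-3.84 ± 0.34). The folds at 30 dyn/cm² rest on 47 against 7 reads in orpk cells and 48 against 118 reads in WT cells.

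Itga1 (ENSMUSG00000042284, chromosome 13, 114953096 to 115101964, minus strand), a receptor for basement membrane collagen, had 12.1, 11.2 and 8.93 CPM in static orpk libraries, 14.4, 16.6 and 14.2 at 2 dyn/cm² and 9.06, 6.14 and 8.22 at 30 dyn/cm². It had 13.3, 11.6 and 12.2 CPM in static WT libraries, 7.12, 9.73 and 11 at 2 dyn/cm² and 6.29, 6.1 and 5.35 at 30 dyn/cm². Static genotypes overlapped (-0.20 ± 0.13, not called). Itga1 fell at 30 dyn/cm² in orpk and WT cells (-0.47 ± 0.15 and -1.07 ± 0.14), by less in orpk cells (interaction 0.60 ± 0.21, adjusted p = 0.0153). The orpk change is -0.32 and not called without the second orpk library at 30 dyn/cm², and the interaction is 0.47 and not called without the first. Under 2 dyn/cm² it rose in orpk cells (0.49 ± 0.13) and fell in WT cells (-0.42 ± 0.13), and the WT change was -0.25 and not called without the first WT library. Its exons share 685 bases with the gene that overlaps them most, and Pelo lies on the same strand within it. Part of the Itga1 reads thus cannot be assigned with certainty. Itga10, a cartilage collagen receptor chain, lay between 3.05 and 3.81 RPKM as a group mean in orpk cells and between 0.954 and 1.08 RPKM in WT cells, and shares 1739 exon bases with Gm42957 on the same strand, so its level is uncertain. The collagen-binding chains summed to 62.2 ± 1.5, 32.9 ± 2.5 and 37.6 ± 1.3 RPKM in orpk cells at static, 2 and 30 dyn/cm², and to 2.12 ± 0.26, 1.55 ± 0.11 and 1.42 ± 0.21 RPKM in WT cells.

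The chains that bind fibronectin and vitronectin by their RGD motif were higher in orpk cells. Itga5 (ENSMUSG00000000555, chromosome 15, 103344286 to 103366763, minus strand), which with Itgb1 forms the main fibronectin receptor, had 401, 398 and 383 CPM in static orpk libraries, 396, 404 and 423 at 2 dyn/cm² and 693, 689.8 and 665 at 30 dyn/cm². It had 135, 140.1 and 138 CPM in static WT libraries, 133, 135 and 131 at 2 dyn/cm² and 155, 148 and 149 at 30 dyn/cm². All orpk libraries were above all WT libraries, and both genotypes were highest at 30 dyn/cm². Itga5 was 2.86-fold higher in static orpk cells. It rose 1.73-fold at 30 dyn/cm² in orpk cells and 1.09-fold in WT cells (0.79 ± 0.03 and 0.13 ± 0.04), an interaction of 0.66 ± 0.05 (adjusted p = 5.33e-15).

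Itgav (ENSMUSG00000027087, chromosome 2, 83724397 to 83806916, plus strand), the partner of Itgb3, Itgb5, Itgb6 and Itgb8 and also of Itgb1, had 433, 429 and 441 CPM in static orpk libraries, 409, 392 and 407 at 2 dyn/cm² and 496, 514 and 493 at 30 dyn/cm². It had 196, 187 and 189 CPM in static WT libraries, 127, 126 and 131 at 2 dyn/cm² and 173, 179.9 and 171 at 30 dyn/cm². All orpk libraries were above all WT libraries, and in each genotype 2 dyn/cm² was the lowest. Itgav was 2.27-fold higher in static orpk cells, rose at 30 dyn/cm² in orpk cells (0.21 ± 0.03) and fell in WT cells (-0.13 ± 0.04).

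Itga8 (ENSMUSG00000026768, chromosome 2, 12106632 to 12301922, minus strand), which with Itgb1 binds nephronectin, held 85, 88 and 83 reads in static orpk libraries, 84, 91 and 80 at 2 dyn/cm² and 14, 13 and 15 at 30 dyn/cm². In WT libraries it had 0, 0 and 0 reads in static culture, 0, 0 and 0 at 2 dyn/cm² and 1, 0 and 0 at 30 dyn/cm². It was read in every orpk library and in 1 of 9 WT libraries. With a floor of 3 reads over the WT group, Itga8 was at least 92.9-fold higher in static orpk cells, and it fell 5.65-fold at 30 dyn/cm² in orpk cells (-2.50 ± 0.20, adjusted p = 6.93e-14).

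The beta partners of Itgav differed between genotypes and with flow. Itgb3 (ENSMUSG00000020689, chromosome 11, 104608000 to 104670476, plus strand), which with Itgav forms the vitronectin receptor of angiogenic endothelium, had 13.5, 12.9 and 12.8 CPM in static orpk libraries, 30.4, 26.5 and 28.5 at 2 dyn/cm² and 118, 119 and 118 at 30 dyn/cm². It had 0.457, 0.98 and 0.69 CPM in static WT libraries, 2.39, 2.1 and 1.84 at 2 dyn/cm² and 4.37, 4.33 and 3.86 at 30 dyn/cm². Neither genotype's 3 groups overlapped, and both ran upward from static to 30 dyn/cm². Itgb3 was 18.4-fold higher in static orpk cells. It rose 9.07-fold at 30 dyn/cm² in orpk cells and 5.9-fold in WT cells (3.18 ± 0.06 and 2.56 ± 0.21), with an interaction of 0.62 ± 0.28 that was not called (adjusted p = 0.0618, unadjusted 95% interval 0.07 to 1.17).

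Itgb5 (ENSMUSG00000022817, chromosome 16, 33829665 to 33949338, plus strand), a vitronectin receptor chain, had 292, 302 and 293 CPM in static orpk libraries, 352, 351 and 348 at 2 dyn/cm² and 1087, 1098 and 1157 at 30 dyn/cm². It had 171, 166 and 164 CPM in static WT libraries, 146, 140 and 139.8 at 2 dyn/cm² and 203, 198 and 201 at 30 dyn/cm². All orpk libraries were above all WT libraries, and both genotypes were highest at 30 dyn/cm². Itgb5 rose 3.77-fold at 30 dyn/cm² in orpk cells and 1.2-fold in WT cells (1.91 ± 0.03 and 0.26 ± 0.03), an interaction of 1.65 ± 0.05 (adjusted p = 1.17e-28). At 2 dyn/cm² it rose in orpk cells and fell in WT cells (0.24 ± 0.03 and -0.23 ± 0.04).

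Itgb6 and Itgb8, which with Itgav bind and activate latent TGF-beta, fell at 30 dyn/cm² where they were read. Itgb6 (ENSMUSG00000026971, chromosome 2, 60598292 to 60722643, minus strand), known from epithelia, held 1, 0 and 2 reads in static orpk libraries, 0, 0 and 0 at 2 dyn/cm² and 0, 1 and 2 at 30 dyn/cm². It had 21.1, 16.7 and 19 CPM in static WT libraries, 8.1, 7.69 and 8.46 at 2 dyn/cm² and 4.73, 3.88 and 3.75 at 30 dyn/cm². The 3 WT groups did not overlap. Static orpk libraries held 3 reads against 892 in static WT libraries, so that the WT level was 273 times the orpk level (exact 95% counting interval 93.1 to 1326, counting error only). In WT cells Itgb6 fell 2.34-fold at 2 dyn/cm² and 4.61-fold at 30 dyn/cm² (-1.23 ± 0.10 and -2.20 ± 0.12). The epithelial markers, which moved with genotype, summed to 412 to 436 CPM in WT libraries at 30 dyn/cm² and 467 to 476 CPM static. The lower sum is that of Krt19, at 16.2 CPM as a group mean at 30 dyn/cm² and 162 CPM static, while Krt8 had 197 and 149 CPM and Epcam 11.3 and 3.01 CPM. Of the 8 epithelial markers tested in WT cells there, 6 were called higher and 1 lower (median 0.88); their part in the Itgb6 result was not tested.

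Itgb8 (ENSMUSG00000025321, chromosome 12, 119158022 to 119238802, minus strand) had 45.6, 48.4 and 49.2 CPM in static orpk libraries, 46.2, 48 and 46.2 at 2 dyn/cm² and 13, 15.4 and 12.6 at 30 dyn/cm². It had 31.3, 27.4 and 26.6 CPM in static WT libraries, 26.5, 31.3 and 29.3 at 2 dyn/cm² and 15.8, 14.7 and 15.1 at 30 dyn/cm². The libraries at 30 dyn/cm² were the lowest of each genotype, and there the genotypes overlapped. Itgb8 fell 3.48-fold in orpk cells and 1.87-fold in WT cells at 30 dyn/cm² (-1.80 ± 0.08 and -0.90 ± 0.08), an interaction of -0.89 ± 0.11 (adjusted p = 4.01e-09). Its change at 2 dyn/cm² was not called in either genotype (-0.03 ± 0.06 and 0.03 ± 0.07).

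**Figure D3:**
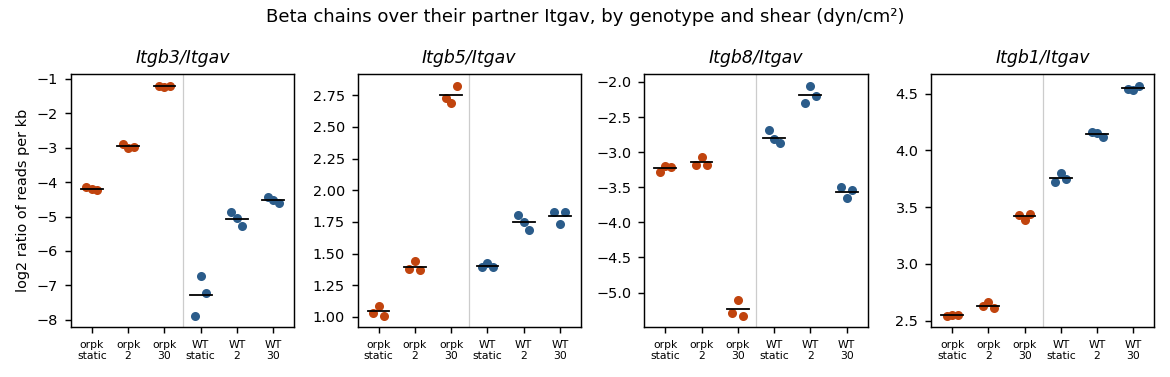
Log2 ratio of reads per kilobase (vertical) of Itgb3, Itgb5, Itgb8 and Itgb1 to Itgav, in each library by genotype and shear (horizontal); points are libraries and bars are group means. The orpk libraries at 30 dyn/cm² have the highest orpk ratios of Itgb3, Itgb5 and Itgb1 to Itgav and the lowest of Itgb8.

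Read against Itgav in the same library, the beta partners shifted as in the plot of ratios to Itgav. The ratio of Itgb5 to Itgav per kilobase was 2.06, 2.63 and 6.72 in orpk cells at static, 2 and 30 dyn/cm², and 2.65, 3.35 and 3.47 in WT cells. For Itgb3 the log2 ratio was -4.19 ± 0.05, -2.96 ± 0.07 and -1.22 ± 0.02 in orpk cells, and -7.28 ± 0.58, -5.07 ± 0.21 and -4.52 ± 0.08 in WT cells. For Itgb8 it was -3.23 ± 0.05, -3.15 ± 0.06 and -5.24 ± 0.12 in orpk cells, and -2.79 ± 0.09, -2.19 ± 0.13 and -3.57 ± 0.08 in WT cells. In orpk cells the libraries at 30 dyn/cm² did not overlap the static ones in any of these ratios. In WT cells the Itgb5 ratio overlapped between 2 and 30 dyn/cm², and the static Itgb3 ratio rests on 7, 14 and 12 reads. Itgb5 was the most abundant of the 4 non-Itgb1 partners in each group, at 314 ± 10.6 RPKM in orpk cells at 30 dyn/cm² and 56.5 ± 0.72 RPKM in WT cells at 30 dyn/cm².

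The remaining chains are known from leukocytes or were scarce. Itgb2, the beta chain of leukocyte integrins, held 107, 133 and 129 reads in static orpk libraries, 71, 76 and 69 at 2 dyn/cm² and 36, 40 and 43 at 30 dyn/cm². It held 13, 9 and 11 reads in static WT libraries, 13, 8 and 15 at 2 dyn/cm² and 8, 10 and 9 at 30 dyn/cm². It was higher in static orpk cells (3.59 ± 0.19) and fell there at 30 dyn/cm² (-1.53 ± 0.14). Of 7 leukocyte markers 3 were tested, with 1 higher and 1 lower in static orpk cells. Cd68 had 8.72 CPM in static orpk cells and 2.65 CPM in static WT cells as group means, and Csf1r had 5.09 and 44.3 CPM. In orpk cells at 30 dyn/cm² against static 0 of these 3 were called higher and 3 lower. Ptprc stayed at or below 0.21 CPM as a group mean, and Adgre1 and Tyrobp were at 0 reads in all groups; the part of these markers in the Itgb2 results was not tested.

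Itgb7, the lymphocyte partner of Itga4, held 12, 4 and 5 reads in static orpk libraries, 5, 10 and 8 at 2 dyn/cm² and 12, 5 and 6 at 30 dyn/cm². It held 41, 48 and 47 reads in static WT libraries, 90, 98 and 82 at 2 dyn/cm² and 75, 58 and 69 at 30 dyn/cm². Every orpk library was below every WT library. Itgb7 was lower in static orpk cells (-2.55 ± 0.31) and rose at 2 dyn/cm² in WT cells (0.80 ± 0.17). Itga4, which binds VCAM1 and fibronectin, held 0 to 6 reads a library and was not tested. Itga9, which with Itgb1 binds tenascin C, held 18, 11 and 13 reads in static orpk libraries, 7, 5 and 6 at 2 dyn/cm² and 6, 10 and 5 at 30 dyn/cm². Reads of Itga9 in WT libraries numbered 1, 0 and 0 in static culture, 4, 0 and 1 at 2 dyn/cm² and 0, 0 and 2 at 30 dyn/cm². In orpk cells it fell at 2 and at 30 dyn/cm² (-1.35 ± 0.42 and -0.89 ± 0.41). The call at 30 dyn/cm² is lost with DESeq2, with no filter on low counts, and without the first or the third orpk library of either group, where the value lies between -0.90 and -0.65.

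**Figure D4:**
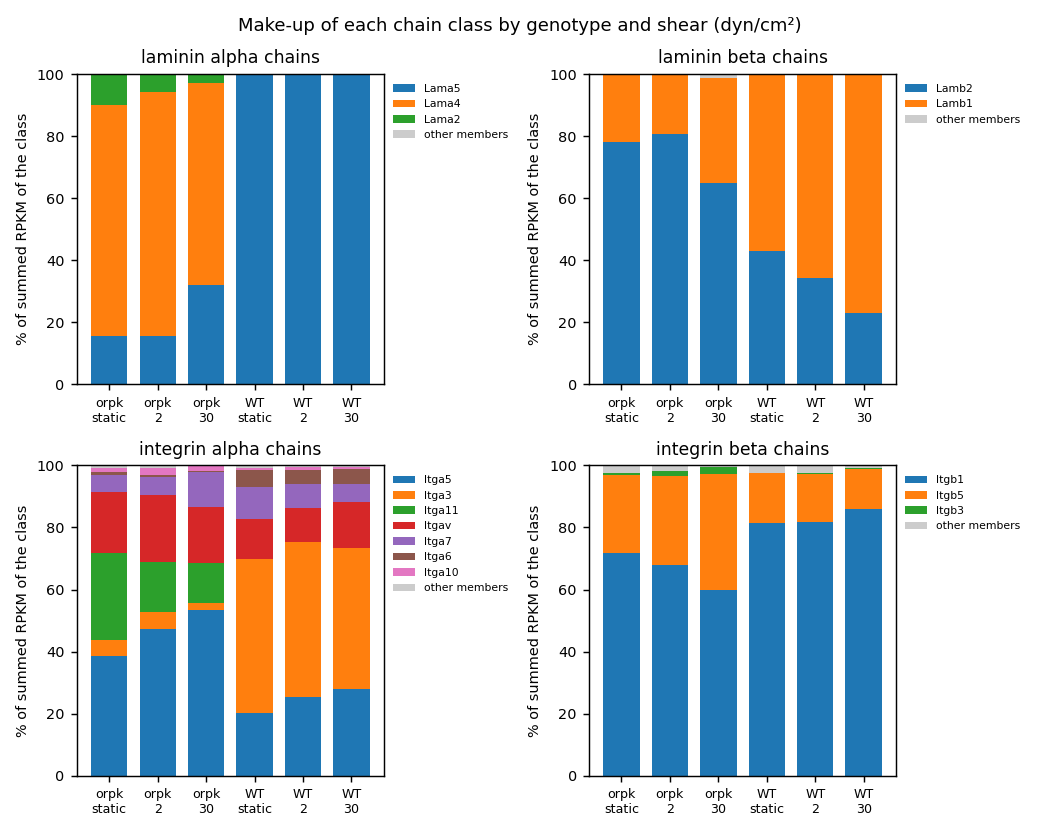
Share of the summed RPKM of each chain class, over the members followed here (vertical, percent), held by each gene, by genotype and shear (horizontal). Bars are group means stacked to 100 percent, and genes under 2 percent in every group are pooled in grey. The laminin alpha bars are mostly Lama4 in orpk cells and Lama5 in WT cells, and the Itgb5 part of the integrin beta bar is largest in orpk cells at 30 dyn/cm².

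By share of the class, the 12 integrin alpha chains followed here were led by Itga5 in orpk cells and by Itga3 in WT cells. Itga5 held 38.5 ± 0.64%, 47.4 ± 1.2% and 53.4 ± 0.99% of the alpha chain RPKM in orpk cells at static, 2 and 30 dyn/cm², and Itga3 held 49.8 ± 0.83%, 49.9 ± 0.99% and 45.4 ± 0.44% in WT cells. Itga11 held 28.2 ± 0.52%, 16.2 ± 1.3% and 12.9 ± 0.56% in orpk cells. Among the beta chains Itgb1 held 71.7 ± 0.50%, 67.9 ± 0.16% and 59.7 ± 0.77% in orpk cells, and 81.6 ± 0.33%, 81.7 ± 0.28% and 86.1 ± 0.42% in WT cells. Itgb5 held 25.2 ± 0.49%, 28.8 ± 0.16% and 37.5 ± 0.80% in orpk cells, and 15.9 ± 0.24%, 15.5 ± 0.34% and 12.8 ± 0.33% in WT cells. All beta chains summed to 329.7 ± 3.1, 342 ± 3.0 and 836 ± 10.5 RPKM in orpk cells, and to 295 ± 4.0, 257 ± 1.9 and 442 ± 5.7 RPKM in WT cells. The 12 alpha chains summed to 207 ± 2.5, 174 ± 2.2 and 259 ± 2.6 RPKM in orpk cells, and to 138 ± 1.9, 106 ± 2.2 and 109 ± 1.5 RPKM in WT cells. The 6 other integrin alpha chains, Itga2b among them, are not in these sums or shares. Together they had at most 15.8 CPM in a library. Beta chain transcripts thus exceeded those of the 12 alpha chains per kilobase in each group, most at 30 dyn/cm².

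**Figure D5:**
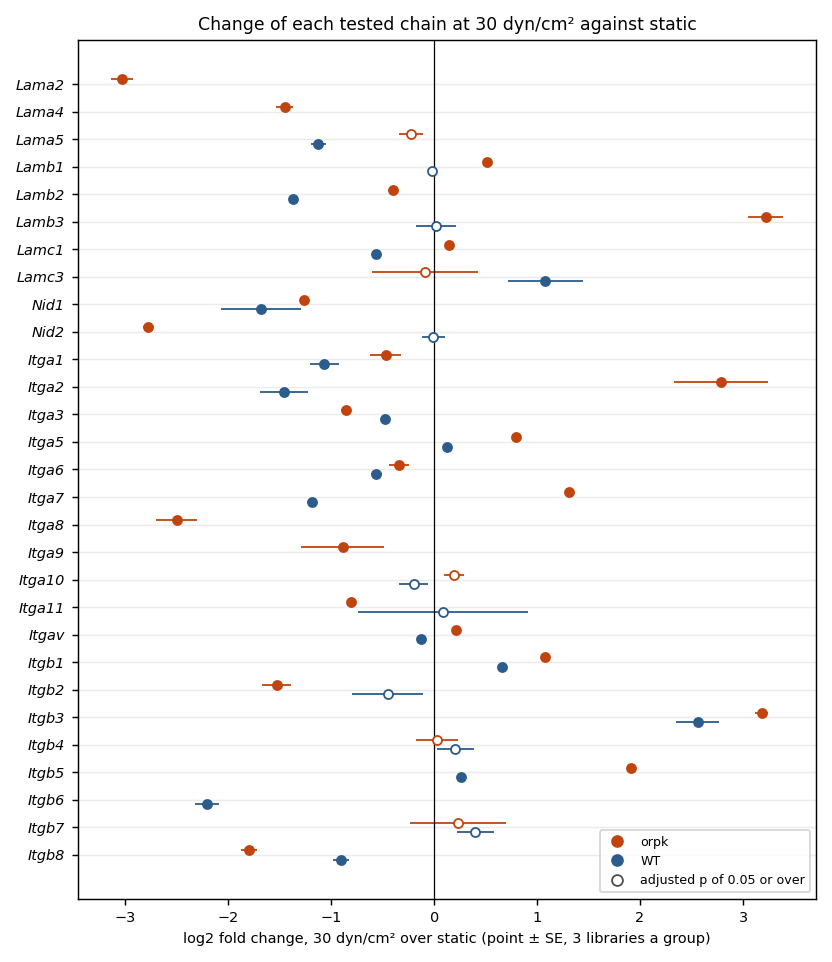
Log2 fold change at 30 dyn/cm² over static (horizontal, point ± standard error, 3 libraries a group) of each tested chain (vertical), in orpk and in WT cells; filled points have an adjusted p under 0.05, and comparisons in which a group had 3 reads or fewer are not drawn. Itgb1, Itgb3 and Itgb5 lie right of 0 and Itga3, Itga6 and Itgb8 left of 0 in both genotypes, and Itga2 and Itga7 lie on opposite sides.

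The flow effects of the genotypes were compared by interaction. At 30 dyn/cm² 16 of 29 members differed in their flow effect, 12 higher and 4 lower in orpk than in WT cells, with a background of 57.5% (30.6% higher, 26.9% lower). The median difference was 0.39 over the 29 and 0.01 over all tested genes. At 2 dyn/cm² 17 of 29 differed, 12 higher and 5 lower, with a background of 52.6% (27.1% higher, 25.4% lower). The lower count there is 2 with DESeq2 and with no filter on low counts, 3 with the compared groups alone, and 1 to 5 with 1 library left out in turn, the 1 without the third orpk library at 2 dyn/cm². Of the laminin beta chains, Lamb1, Lamb2 and Lamb3 all had a higher flow effect in orpk cells at 30 dyn/cm² (0.53 ± 0.05, 0.97 ± 0.06 and 3.20 ± 0.28).

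Lists of partner genes were read beside the chains. They were chosen with earlier results of these data known, and are given by counts and medians. Of all tested genes, 87.8% were called between genotypes in static culture (44.4% higher, 43.4% lower). At 30 dyn/cm² against static 69.9% were called in orpk cells (36.5% higher, 33.3% lower) and 66.9% in WT cells (34.1% higher, 32.7% lower). For the interaction at 30 dyn/cm² the share was 57.5% (30.6% higher, 26.9% lower). The counts of each list are to be read beside these shares. Of the integrin adaptors, which join integrin tails to actin, 26 of 27 were tested. In static culture 13 were higher and 10 lower in orpk cells (12 and 13 with library totals). In orpk cells at 30 dyn/cm² against static 16 rose and 3 fell (median 0.25, all genes 0.02), and in WT cells 8 rose and 11 fell (median -0.13, all genes 0.00; 9 and 10 with library totals). The interaction was higher in orpk cells for 19 and lower for 2 (median 0.47). Actn1, an actin crosslinker that binds beta integrin tails, averaged 776 ± 8.9 CPM in orpk cells at 30 dyn/cm² and 367 ± 10.5 CPM in static orpk cells (1.08 ± 0.03). Parvb, the parvin partner of integrin-linked kinase, averaged 60.6 ± 1.9 CPM at 30 dyn/cm² and 29.1 ± 0.50 CPM static in orpk cells, and 13.2 ± 1.8 and 6.7 ± 0.81 CPM in WT cells in the same order.

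Of the matrix ligands of integrins, 18 of 20 were tested. In static culture 13 were higher and 4 lower in orpk cells (median 3.82, all genes 0.01), with the largest differences in Edil3, Thbs2 and Col3a1. Thbs2, a thrombospondin, averaged 1321 ± 22 CPM in orpk cells and 0.778 ± 0.24 CPM in WT cells, and Col3a1, a fibrillar collagen, 8155 ± 185 and 5.14 ± 0.44 CPM. Edil3, a ligand of Itgav integrins, averaged 72.2 ± 1.2 CPM in orpk cells and held 1 read in the WT libraries. Under 30 dyn/cm² 7 rose and 6 fell in orpk cells, and 8 rose and 4 fell in WT cells. Ccn2, a matricellular ligand and a known target of YAP and TEAD, averaged 439 ± 9.8 CPM at 30 dyn/cm² and 10.3 ± 2.3 CPM static in orpk cells, and 316 ± 6.8 and 50.6 ± 6.3 CPM in WT cells, with an interaction of 2.75 ± 0.15.

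Of the basement membrane partners, 19 of 20 were tested. In static culture 9 were higher and 8 lower in orpk cells (8 and 9 with library totals). Under 30 dyn/cm² 8 rose and 8 fell in orpk cells, and 4 rose and 7 fell in WT cells (6 and 7 with library totals). Col4a3, a minor collagen IV chain, averaged 24.5 ± 3.5 CPM at 30 dyn/cm² and 1.57 ± 0.19 CPM static in orpk cells (3.96 ± 0.13), its partner chain Col4a4 averaged 21.3 ± 1.4 and 5.7 ± 0.69 CPM, and Fbln1, a fibulin that binds nidogen, 53.2 ± 3.4 and 216 ± 6.7 CPM (-2.02 ± 0.05). Hspg2, the basement membrane proteoglycan perlecan, averaged 773 ± 6.4 CPM at 30 dyn/cm² and 1715 ± 35.6 CPM static in WT cells (-1.15 ± 0.12). Ntn4, a laminin-like netrin that binds laminin gamma chains, averaged 8.9 ± 0.26 and 38.7 ± 1.5 CPM in the same groups.

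Of the hemidesmosome and laminin receptor partners, 13 of 14 were tested. In static culture 7 were higher and 4 lower in orpk cells (6 and 7 with library totals). Bcam, a membrane receptor for Lama5, held 4 reads in the static orpk libraries and 10524 in the static WT libraries, and averaged 108 ± 0.29 CPM at 30 dyn/cm² and 225 ± 12.5 CPM static in WT cells (-1.05 ± 0.04). Dag1, dystroglycan, a receptor for laminin alpha chains, averaged 358 ± 8.6 and 786 ± 32.4 CPM in the same WT groups (-1.13 ± 0.04). Cd151, the tetraspanin that joins laminin-binding integrins, averaged 235 ± 2.2 CPM at 30 dyn/cm² and 117 ± 3.5 CPM static in orpk cells (1.00 ± 0.04). Under 30 dyn/cm² 5 of the list rose and 4 fell in orpk cells, and 4 rose and 6 fell in WT cells. Of the 6 other integrin chains, 2 were tested, and Itga2b, the platelet alpha chain that pairs with Itgb3, averaged 5.83 ± 0.81 CPM at 30 dyn/cm² and 12.5 ± 0.54 CPM static in orpk cells, and 7.93 ± 1.2 and 12.5 ± 1.2 CPM in WT cells.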

How the data were processed

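Per the labels' protocols, stranded mRNA libraries were read as single 50-nt ends. Per the submitters' processing notes, CASAVA 1.8.2, STAR 2.4, featureCounts 1.4.6 and the GRCm38 build were used; the annotation and the strand and multimapping settings are not given in the sources used here. The authors deposited 1 table of raw counts per gene. From these counts, edgeR 4.0.16 (R 4.3.3, limma 3.58.1) was fitted to all 18 libraries with 6 group means, TMM scaling, filterByExpr by group and robust quasi-likelihood, and Benjamini-Hochberg adjustment over 13058 genes. Of the 11 comparisons, 9 are between groups and 2 are interactions. RPKM used merged exon lengths of GENCODE M21, in which 21583 of 21647 IDs had a symbol; 12 members share exon bases with another gene, among them Lama2 (631), Itgav (634), Itgb4 (537) and Nid2 (437). Where a group had 0 reads, its floor was set at 3 reads in total, and intervals at 1 to 3 reads are exact 95% counting intervals, both for counting error only.

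Members and lists were chosen with earlier results of these data known. Values in every library are given for members with an adjusted p under 0.05 and an absolute log2 fold change over 1 in a shear comparison or over 2 in a genotype comparison, and for their partner chains; of each other list, genes are named from among the 3 largest called changes in a comparison described. Promoters are RefSeq's. The method was also run on simulated data in which few genes changed, unlike in most comparisons here. That run thus does not test the scaling or the error rate of these comparisons. Alternatives were DESeq2 1.42.0, RLE scaling, library totals, no filter on low counts, the fit of the compared groups only, leaving out each library in turn, the replicate number as a block and, for ratios, the longest transcript as length. Replicate numbers do not pair the samples: over 45 pairs of same-numbered libraries, the correlation of deviations from group means ran from -0.097 to 0.135.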

Additional observations from a re-analysis of the deposited data

Results flagged for a closer look

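The flow effects below differed between the genotypes by the interaction test itself (edgeR, adjusted over all 13058 tested genes), each value being the log2 flow effect in orpk cells minus that in WT cells. At 2 dyn/cm² against static, the laminin and nidogen differences were 0.49 ± 0.14 for Lama5, 0.83 ± 0.06 for Lamb2, 1.41 ± 0.35 for Lamb3, 0.37 ± 0.06 for Lamc1, -1.43 ± 0.62 for Lamc3 and -0.88 ± 0.11 for Nid2. The integrin alpha differences there were 0.90 ± 0.18 for Itga1, 0.18 ± 0.06 for Itga3, 0.25 ± 0.11 for Itga6, 0.55 ± 0.06 for Itga7, 0.45 ± 0.17 for Itga10 and 0.47 ± 0.05 for Itgav. The integrin beta differences were 0.17 ± 0.04 for Itgb1, -0.86 ± 0.35 for Itgb2, -0.64 ± 0.27 for Itgb4 and 0.48 ± 0.05 for Itgb5. The calls for Lamc3, Itga6 and Itgb2 lay near the threshold (interaction, adjusted p = 0.0498, 0.0488 and 0.0386). Each was lost without the first WT library at 2 dyn/cm², which stands apart, and also without any of several other libraries. Those for Itga10 and Itgb4 (adjusted p = 0.0230 and 0.0460) were likewise lost without any of several libraries, left out in turn. Itga9 was also called there, but its static WT libraries held 1 read in all. Its call is lost without the first WT library at 2 dyn/cm² and without any of several others. The called effects were opposite for Itga1 (0.49 ± 0.13 in orpk and -0.42 ± 0.13 in WT cells), Nid2 (-0.53 ± 0.05 and 0.35 ± 0.10) and Itgb5 (0.24 ± 0.03 and -0.23 ± 0.04).

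At 30 dyn/cm² against static, the differences were 0.90 ± 0.14 for Lama5, 0.53 ± 0.05 for Lamb1, 0.97 ± 0.06 for Lamb2, 3.20 ± 0.28 for Lamb3, 0.71 ± 0.06 for Lamc1 and -2.77 ± 0.12 for Nid2. The integrin alpha differences were 0.60 ± 0.21 for Itga1, 4.25 ± 0.50 for Itga2, -0.38 ± 0.06 for Itga3, 0.66 ± 0.05 for Itga5, 2.50 ± 0.06 for Itga7 and 0.34 ± 0.05 for Itgav. The integrin beta differences were 0.42 ± 0.04 for Itgb1, -1.08 ± 0.39 for Itgb2, 1.65 ± 0.05 for Itgb5 and -0.89 ± 0.11 for Itgb8. The Itga1 call is lost without the first orpk library at 30 dyn/cm² and that of Itgb2 without the second WT library there. Itga2, Itga7, Itgav and Lamc1 moved in opposite called directions in the 2 genotypes, with every orpk library at 30 dyn/cm² above and every WT library below its static group; for Itgav and Lamc1 the orpk effects were 0.21 ± 0.03 and 0.15 ± 0.04 and the WT effects -0.13 ± 0.04 and -0.56 ± 0.04. The remaining differences are in the size of the effect, or in effects not called in at least 1 genotype. Causes were not tested.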

How the results depend on the processing

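Each total of called members stayed within 1.5 times its value under every alternative run; by direction, the 5 lower at the 2 dyn/cm² interaction did not, at 2 with DESeq2 and no filter, 3 with the compared groups alone and 1 to 5 with 1 library left out. Leaving out 1 library at a time gave 25 to 25 called members for orpk against WT static, 28 to 29 at 2 and 25 to 27 at 30 dyn/cm²; in orpk cells 18 to 21 (2 against static), 22 to 23 (30 against static) and 20 to 22 (30 against 2); in WT cells 18 to 19, 16 to 18 and 14 to 17 in the same order; and 13 to 16 and 15 to 18 for the interactions at 2 and 30 dyn/cm². With library totals as scaling, Itgb1 changed sign between genotypes at 2 dyn/cm² (-0.080, main 0.14) and in orpk cells at 2 dyn/cm² against static (0.078, main -0.03), as did Lamc1 between genotypes at 30 dyn/cm² (-0.15, main 0.16); the causes were not tested. With the longest transcript as length, the log2 ratio of Lamb1 to Lamc1 became 0.25 in orpk cells at 30 dyn/cm² (main -0.41), 0.31 in static WT cells (main -0.35) and 0.54 in WT cells at 2 dyn/cm² (main -0.12). The ratios of Lama4 to Lamc1 and to Lama5 in orpk cells rose with that length too, without a change of sign. In every group the ratio of Itga6 to Itgb4 was larger with that length and that of Lamb2 to Lamb1 smaller, also without a change of sign.

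Without the first WT library at 2 dyn/cm², the WT difference between 30 and 2 dyn/cm² became called for Lama5 (-0.22) and Lamc1 (-0.091). That of Itgb7 (main -0.40) was no longer called (-0.43), and its call was also lost without any of several other libraries. Without the second orpk library at 2 dyn/cm², orpk calls were gained for Lamb2 at 2 dyn/cm² against static (-0.11) and, between 30 and 2 dyn/cm², for Nid1 (0.095) and Itgb4 (0.59). The call of Lama5 between 30 and 2 dyn/cm² (main 0.31) was lost without that library, and also without any of several others. With the replicate number as a block, which does not pair these samples, the interaction at 2 dyn/cm² was no longer called for Lamc3 (-1.43, adjusted p = 0.0528) and Itga6 (0.25, adjusted p = 0.0544), and that of Itga10 at 30 dyn/cm² became called (0.39, adjusted p = 0.0489); no other call of a member changed. Members with few reads, such as Itga2, Itga9, Itgb7 and Lamc3, are limited by depth, and differences under the floor of 3 reads were not detectable. Of the 228 called values of single members, DESeq2 lost 8, library totals 9 (and 2 more were called in the other direction), no filter 6, the compared groups alone 5 and RLE scaling 3, and of the 91 others these added 1, 8, 5, 3 and 0 calls. The fit of the compared groups alone tested fewer members. It kept 216 of the 228 called values, and those neither kept nor lost were not tested there.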
